A study of Mus musculus with 12 samples.

Results

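The 36 genes described here encode the chains of the integrins and of the laminins. They were taken from a table of 19702 mouse genes as genes named by the pattern of these chains (Itga, Itgb, Lama, Lamb or Lamc followed by a number or letter). They comprised 18 integrin alpha chains, 8 integrin beta chains, 5 laminin alpha chains, 3 laminin beta chains and 2 laminin gamma chains. Of the 26 integrin genes, 4 (Itgal, Itgam, Itgax and Itgb2) encode the beta2 receptors of leukocytes. They are described apart from the other 32 genes. Counts over all tested genes include them, and the main counts are also given without them. Enough counts for a test were found for 35 of the 36. The exception was Itgad, a further leukocyte alpha chain, which had 0 counts in the 3 uninjured libraries (which allows up to 0.158 counts per 1 M before TMM scaling) and at most 3.18 estimated counts in any library.

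The study profiled whole mouse cornea by RNA sequencing after injury with benzalkonium chloride (BAK), a detergent used as a preservative in eye drops, and after treatment with biologics that the series title derives from cord blood. The 12 libraries formed 4 groups of 3, and each library pooled the RNA of 6 corneas from 3 mice, so errors describe the spread between pools. Control corneas had neither injury nor treatment. Vehicle corneas were injured with BAK and are labelled as untreated. The UCS and UCPRP groups had the same injury and received the biologic of that name, abbreviations that the labels do not spell out. Each injured eye received BAK at 0.2%, in drops of 5 µl, once a day over 14 days. UCS or UCPRP was used at 20%, in drops of 5 µl, 3 times a day over 10 days. Strain, age, harvest time and the order of BAK and treatment days are not stated in the sources used here.

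Integrins are receptors built from an alpha and a beta chain that hold cells to the extracellular matrix or to other cells and signal across the membrane. Laminins are trimers of an alpha, a beta and a gamma chain and form the sheet of the basement membrane. In the cornea, integrin alpha6beta4 and laminin-332, which holds the Lama3 and Lamb3 chains, anchor the basal epithelial cells at hemidesmosomes, while beta2 integrins mark leukocytes and serve their adhesion to vessels and matrix.

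Each library held between 18.55 M and 20.44 M estimated counts, with 17440 to 17890 genes detected. Levels are counts per 1 M counts (CPM) after TMM scaling, given by replicate 1, 2 and 3 in that order. Fold changes, their standard errors (SE, implied by the F statistic) and adjusted p values are from edgeR's quasi-likelihood test across 16124 genes; adjusted p values under 0.05 are referred to as calls. Markers of neighbouring tissues varied between the libraries. Summed lens markers ranged from 57.1 to 25863 CPM and retina markers from 2300 to 13774 CPM over the 12 libraries, and skeletal muscle markers from 15.3 CPM to 1781 CPM in Vehicle replicate 3. The corneal epithelial markers lay at 29507 to 62360 CPM in Control and 1895 to 3113 CPM in Vehicle, while conjunctival and goblet cell markers lay at 2681 to 6216 and 13060 to 18926 CPM. Over all genes, the Pearson r of log2 CPM of Vehicle replicate 3 was 0.964 with replicate 1 and 0.974 with replicate 2. Between replicates 1 and 2 it was 0.966. Vehicle replicate 3 had the lowest Vehicle level for 16 of the 35 tested genes (45.7%, against 31.9% of all genes tested). The clock genes Dbp and Arntl, whose transcripts peak at opposite times of day, split the libraries in another way: Dbp lay below Arntl in Vehicle replicates 1 and 2, Control replicate 3 and UCS replicate 1, and above it in the other 8 libraries.

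Promoter sequence from RefSeq (build GRCm38.p6) was at hand for 23 of the 36 genes. The 250 bases before the start are shown for 4 of them. Itgam and Itgax are neighbours on chromosome 7 that behaved differently in these libraries, and Itga5 and Lamb3 rose in all injured groups. Capitals mark the PU box GAGGAA, the core bound by the myeloid factor PU.1, and the AP-1 site TGAGTCA, both searched on either strand; TTCCTC is the PU box read on the opposite strand. The windows are chr7:128062390-128062639 (plus strand), chr7:128129300-128129549 (plus), chr15:103366792-103367041 (minus) and chr1:193301744-193301993 (plus). The Lamb3 window lies inside the annotated span of the gene, before a start downstream of its first base. The Itgax window also precedes a downstream start, and it runs past the first annotated base of the gene (128129526).
Itgam: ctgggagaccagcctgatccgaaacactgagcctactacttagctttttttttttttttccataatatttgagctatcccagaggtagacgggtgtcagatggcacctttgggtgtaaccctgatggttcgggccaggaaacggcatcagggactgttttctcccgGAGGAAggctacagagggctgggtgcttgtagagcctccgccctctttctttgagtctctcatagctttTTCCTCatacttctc
Itgax: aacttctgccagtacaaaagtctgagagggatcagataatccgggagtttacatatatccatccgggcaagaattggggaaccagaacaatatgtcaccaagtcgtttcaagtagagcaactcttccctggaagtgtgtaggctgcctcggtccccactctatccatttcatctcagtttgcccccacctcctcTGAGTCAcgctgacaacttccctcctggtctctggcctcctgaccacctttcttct
Itga5: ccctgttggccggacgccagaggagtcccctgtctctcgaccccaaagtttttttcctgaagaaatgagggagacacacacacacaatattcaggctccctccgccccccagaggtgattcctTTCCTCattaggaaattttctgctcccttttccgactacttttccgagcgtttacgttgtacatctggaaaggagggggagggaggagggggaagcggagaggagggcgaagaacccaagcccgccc
Lamb3: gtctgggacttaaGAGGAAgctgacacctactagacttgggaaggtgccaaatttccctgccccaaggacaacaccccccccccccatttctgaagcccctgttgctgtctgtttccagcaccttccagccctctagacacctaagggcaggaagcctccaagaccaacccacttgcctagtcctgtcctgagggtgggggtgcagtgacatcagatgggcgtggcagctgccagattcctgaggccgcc

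The Itgam window held 2 PU boxes, starting 84 and 15 bases before the start, and the Itgax window held none. The Itgax window held an AP-1 site 56 bases before the start, which the other 3 windows lacked. A single PU box lay 127 bases before the start in Itga5 and 237 bases before it in Lamb3. Among 32851 promoter windows of this length, 23.3% held a PU box and 4.46% an AP-1 site, so these letters are common and say nothing by themselves about binding.

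In uninjured corneas the most abundant chains per length of transcript were Itgb1, the common partner of most alpha chains, and Itga6, the alpha chain of the hemidesmosomal receptor. Their levels were 66.5 ± 3.07 and 65.3 ± 3.67 CPM per kilobase of exon (SD, n = 3) and their libraries overlapped. The leukocyte chain Itgam came next at 43.2 ± 9.92 CPM per kilobase, below both without overlap and overlapping Itgb5 (34.1 ± 1.81), a vitronectin receptor chain. Itgb4, the beta chain of the hemidesmosomal receptor, lay at 22.3 ± 5.18, and Itga3, another laminin receptor chain, at 19.4 ± 3.0. Among the laminins, Lamb1 (22.5 ± 1.12), Lamb2 (19.2 ± 0.653) and Lama5 (15.4 ± 2.41) were the highest on this scale. The laminin-332 chains Lama3 and Lamb3 were at 12.2 ± 2.37 and 5.74 ± 0.294. Most neighbours further down the order overlapped as well. The lowest tested gene was Itgb3, a chain of the platelet fibrinogen receptor and of a vitronectin receptor, at 0.163 ± 0.0488 CPM per kilobase.

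BAK injury was accompanied by higher levels of 10 of the 35 tested genes and a lower level of 1 in Vehicle against Control. Among all 16124 genes tested in this comparison, 9.58% were called higher and 6.92% lower. The genes that rose were the leukocyte chains Itgb2, Itgal and Itgax, the chains Itgb3, Itga11, Itga5, Itga1 and Itgb1, and the laminin chains Lamb3 and Lama4. The only one that fell was Lama5. The median log2 fold change of the 35 genes was 0.16. Over all genes tested it was near 0. The libraries of the pair of groups did not overlap for 10 of the 35 genes upward and 3 downward, against 15.2% and 15.4% of all genes. Outside the beta2 integrins, 7 of 31 tested genes were called higher and 1 lower, with a median of 0.11. Of these 31 genes, 7 were separated upward and 3 downward.

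**Figure D1:**
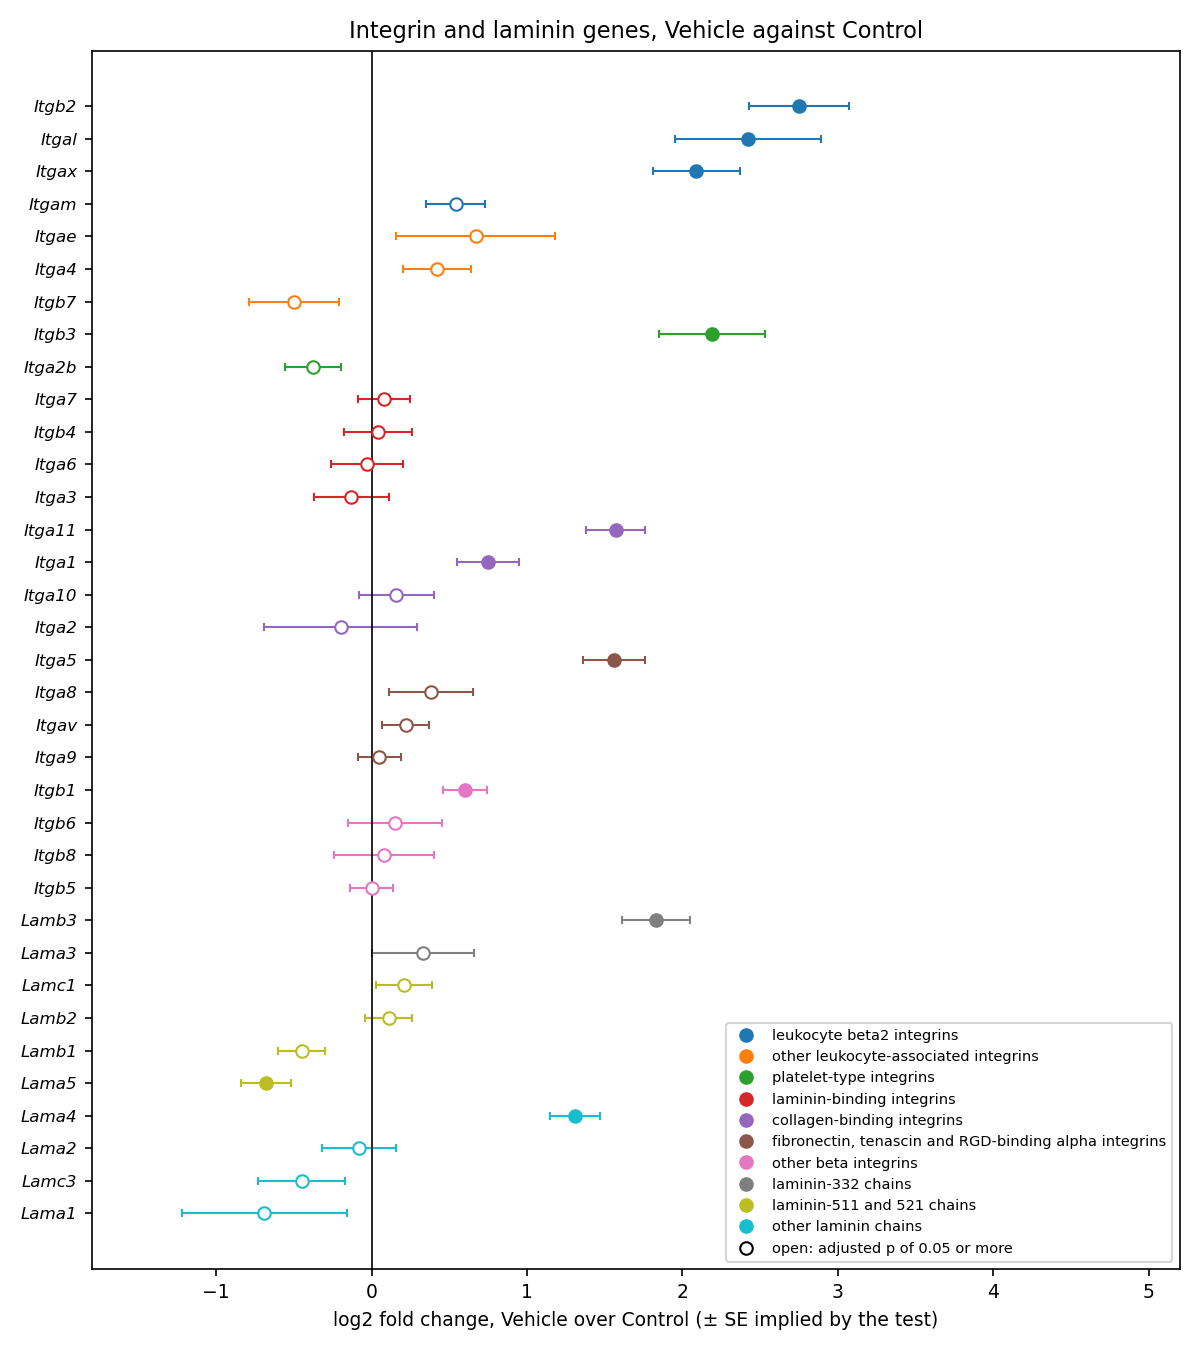
Log2 fold change (x axis) of each of the 35 tested integrin and laminin genes in Vehicle over Control, with bars of ± SE as implied by the test; colours give the role of the chain and open symbols an adjusted p of 0.05 or more. Itgb2 stands highest at 2.75, the laminin receptor chains Itga6, Itgb4, Itga3 and Itga7 lie within 0.13 of 0, and Lama5 is the only filled symbol below 0.

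Among the beta2 integrins, the common beta chain Itgb2 changed most. Itgb2 (chromosome 10, 77530329 to 77565708, GRCm38.p6) was at 3.66, 4.45 and 5.02 CPM in Control, 37.4, 33.0 and 17.9 in Vehicle, 9.72, 14.1 and 21.7 in UCS, and 15.6, 14.6 and 14.5 in UCPRP. All injured libraries lay above all Control libraries, and the UCPRP libraries lay close together below the Vehicle ones. In Vehicle against Control the log2 fold change was 2.75 (SE 0.32, adjusted p = 0.000252), or 6.72-fold. In whole corneas, more leukocytes and more RNA per leukocyte cannot be told apart.

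Itgal, the alpha chain of LFA-1, which binds ICAM molecules, was at 1.75, 1.78 and 2.38 CPM in Control and 13.4, 13.6 and 4.60 in Vehicle. In UCS it was at 3.19, 4.12 and 9.19 CPM, and in UCPRP at 2.99, 2.57 and 3.24. Vehicle replicate 3 lay far below the other Vehicle libraries and below UCS replicate 3, but above all of Control and UCPRP. Itgal rose in Vehicle by 2.42 on the log2 scale (SE 0.47, adjusted p = 0.0044).

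Itgax, the alpha chain CD11c of dendritic cells and macrophages, was at 2.06, 3.03 and 3.73 CPM in Control and 14.6, 13.0 and 10.0 in Vehicle. It was at 7.86, 8.03 and 14.7 CPM in UCS and 8.11, 8.37 and 8.53 in UCPRP. No injured library reached down to Control, and UCS replicate 3 was as high as the highest Vehicle library. Itgax rose in Vehicle by 2.09 on the log2 scale (SE 0.28, adjusted p = 0.000591).

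Itgam, the alpha chain CD11b of the Mac-1 receptor on neutrophils, monocytes and macrophages, did not follow its beta chain. It was at 162, 259 and 217 CPM in Control, 390, 278 and 258 in Vehicle, 365, 299 and 330 in UCS, and 239, 230 and 235 in UCPRP. Control replicate 2 lay above Vehicle replicate 3, so the groups overlapped, and the UCPRP libraries lay within the range of Control. Against Control, the Vehicle difference was 0.54 on the log2 scale (SE 0.19, adjusted p = 0.0795). It was called by DESeq2 (0.54, adjusted p = 0.0374), with library totals in place of TMM (0.66, 0.0101), and with a muscle term (0.76, 0.0295) or a retina term (0.56, 0.0149). Per length, Itgam was 29.3 ± 5.09 times as high as Itgb2 in Control, 6.68 ± 1.82 times in Vehicle, 14.9 ± 6.99 times in UCS and 9.52 ± 0.299 times in UCPRP (SD, n = 3). CD11b forms a receptor only with the beta2 chain. The highest Vehicle ratio (8.67) was below the lowest Control ratio (26.0).

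Pan-leukocyte markers (Ptprc, Laptm5, Coro1a, Cd53, Cd52 and Lcp1, all 6 called higher in Vehicle) summed to 51.1 to 71.4 CPM in Control, 203 to 373 in Vehicle, 121 to 266 in UCS and 141 to 154 in UCPRP. Relative to that sum, Itgal was at 0.0328 ± 0.00723 in Control and 0.0325 ± 0.00867 in Vehicle, and Itgax at 0.048 ± 0.0116 and 0.0419 ± 0.00648. Itgb2 was at 0.0721 ± 0.0101 and 0.0942 ± 0.00608. Itgam was at 3.45 ± 0.252 times the sum in Control and 1.04 ± 0.238 times in Vehicle, and at 2.0 ± 0.915 and 1.58 ± 0.0562 times in UCS and UCPRP. Itgam was thus highest against the pan-leukocyte sum where that sum was lowest. Macrophage and monocyte markers summed to 222, 311.5 and 274 CPM in Control replicates 1, 2 and 3, where Itgam was at 162, 259 and 217 CPM. In Vehicle they summed to 859 to 1015 CPM. The origin of the Itgam reads in Control was not tested. GENCODE annotates Gm49368, which was not analysed here, over Itgam on the same strand. Neutrophil markers summed to 10.9 to 17.7 CPM in Control and 81.3 to 426 in Vehicle, with the low Vehicle value in replicate 3.

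**Figure D2:**
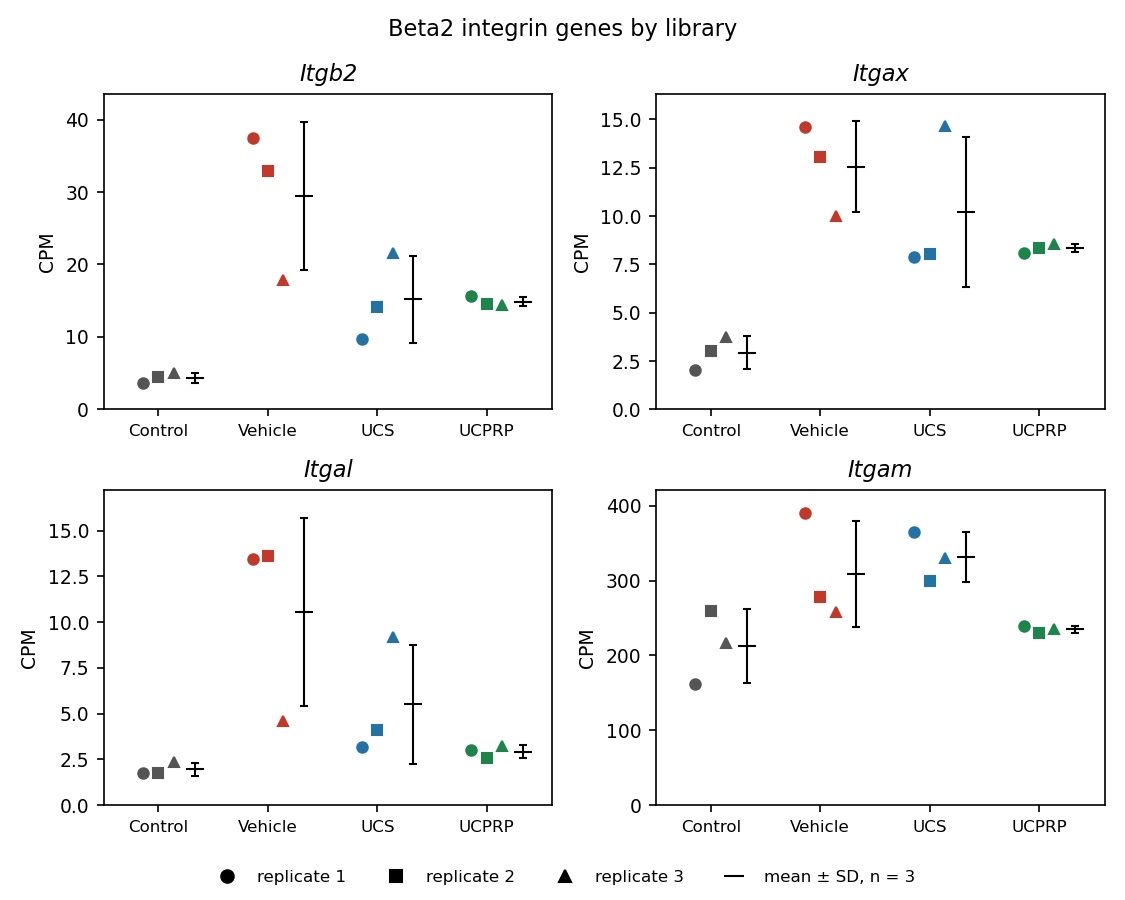
CPM (y axis, from 0) of the 4 beta2 integrin genes in each library of the 4 groups; symbols give the replicate, and the bar beside each group is the mean ± SD of 3 libraries. Itgb2, Itgax and Itgal are lowest in Control, whereas Itgam is at 162 to 259 CPM there and overlaps Vehicle.

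The other leukocyte-associated chains were not called in Vehicle. Itgb7, the beta chain of the gut-homing and epithelial-retention integrins, was at 26.2, 36.0 and 19.5 CPM in Control, 21.7, 13.8 and 22.4 in Vehicle, 35.0, 20.7 and 20.9 in UCS, and 31.5, 22.0 and 20.6 in UCPRP, with overlapping groups (log2 fold change -0.50, adjusted p = 0.297). Itga4, a chain of the VCAM-1 receptor, differed by 0.42 (adjusted p = 0.232). Itgae, which pairs with Itgb7, differed by 0.67 (SE 0.51, adjusted p = 0.444). Lymphocyte markers were low: the T and NK cell list summed to 5.22 to 9.63 CPM in Control and 9.09 to 11.3 in Vehicle.

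Itgb3 rose in Vehicle while its platelet partner did not. Itgb3 (chromosome 11, 104608000 to 104670476) was at 0.618, 1.07 and 1.14 CPM in Control, 4.44, 4.49 and 3.98 in Vehicle, 2.23, 2.09 and 2.55 in UCS, and 1.39, 2.52 and 3.50 in UCPRP. The Vehicle libraries were the highest of all 12 and the Control libraries the lowest; the log2 fold change was 2.19 (SE 0.34, adjusted p = 0.00125). The counts behind it were small, from 12.2 estimated counts in Control replicate 1 to 92.4 in Vehicle replicate 2. Itga2b, which pairs with Itgb3 on platelets, was at 6.23, 6.29 and 5.75 CPM in Control, 5.32, 4.25 and 4.44 in Vehicle, 6.27, 7.07 and 4.80 in UCS, and 6.08, 5.08 and 5.40 in UCPRP. Vehicle and Control did not overlap, but the log2 fold change of -0.38 had an adjusted p of 0.184. Of the platelet markers, Ppbp (1.63 ± 1.35 CPM in Control, 508 ± 150 in Vehicle) and Pf4 (2.79 ± 0.771 and 16.6 ± 2.24) rose and Gp1bb fell (13.3 ± 3.98 and 5.92 ± 2.17). Gp1ba was at 3.94 ± 0.583 and 3.55 ± 0.303 CPM (adjusted p = 0.673), and the other 4 markers (Gp9, Gp5, Gp6 and Treml1) had means of at most 0.304 CPM in both groups. Vessel markers, where Itgb3 can also be found, summed to 94.6 to 139 CPM in Control and 158 to 171 in Vehicle, and their part in the result was not tested.

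Among the laminins, the beta chain Lamb3 of laminin-332 rose and the alpha chain Lama3 was not called. Lamb3 was at 30.5, 27.7 and 30.1 CPM in Control, 141, 110 and 63.6 in Vehicle, 62.1, 65.5 and 62.3 in UCS, and 65.2, 61.2 and 68.6 in UCPRP. All 9 injured libraries lay above all Control libraries, and Vehicle replicate 3 lay among the treated libraries. Lamb3 rose in Vehicle by 1.83 on the log2 scale (SE 0.22, adjusted p = 0.000278), or 3.56-fold. Vehicle replicates 1 and 2, the highest of all libraries, are also those Vehicle libraries with Dbp below Arntl. Control replicate 3 and UCS replicate 1, also with Dbp below Arntl, were at 30.1 and 62.1 CPM and not the highest of their groups. Among the 8 libraries with Dbp above Arntl, the Lamb3 difference was 1.12. It rests on Vehicle replicate 3 alone, so no p value is read from it. The GENCODE model of Lamb3 is overlapped by Hsd11b1 and G0s2 on the opposite strand, whereas the shorter RefSeq model (chromosome 1, 193294353 to 193343878) does not reach them; the sources used here do not name the annotation behind the counts.

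Lama3, the alpha chain of laminin-332, was at 149, 102 and 141 CPM in Control, 242, 162 and 88.8 in Vehicle, 90.1, 122 and 86.9 in UCS, and 92.9, 68.0 and 125 in UCPRP. Vehicle held both the highest value of all libraries and a value below Control; the log2 fold change was 0.33 (SE 0.33, adjusted p = 0.582). Conjunctival and goblet cell markers, all 8 of which rose in Vehicle, moved with the injured groups as Lamb3 did. Their sum was 18926, 13060 and 18458 CPM in Vehicle replicates 1, 2 and 3, where Lamb3 was at 141, 110 and 63.6 CPM. Their part in the Lamb3 result was not tested. The sum of 5 basal epithelial markers overlapped between Control (15112 to 28061 CPM) and Vehicle (15701 to 18649 CPM), but its members moved in both directions. Krt14 rose from 740 ± 212 to 4754 ± 1080 CPM (2.68, adjusted p = 0.000156) and Krt17 from 82.8 ± 47.7 to 755 ± 191 CPM (3.19, adjusted p = 0.00139), while Krt5, the largest part of the sum in Control, fell by 1.26 on the log2 scale (adjusted p = 0.00666). Krt15 and Trp63 were not called. The part of these markers in the Lamb3 result was not tested.

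**Figure D3:**
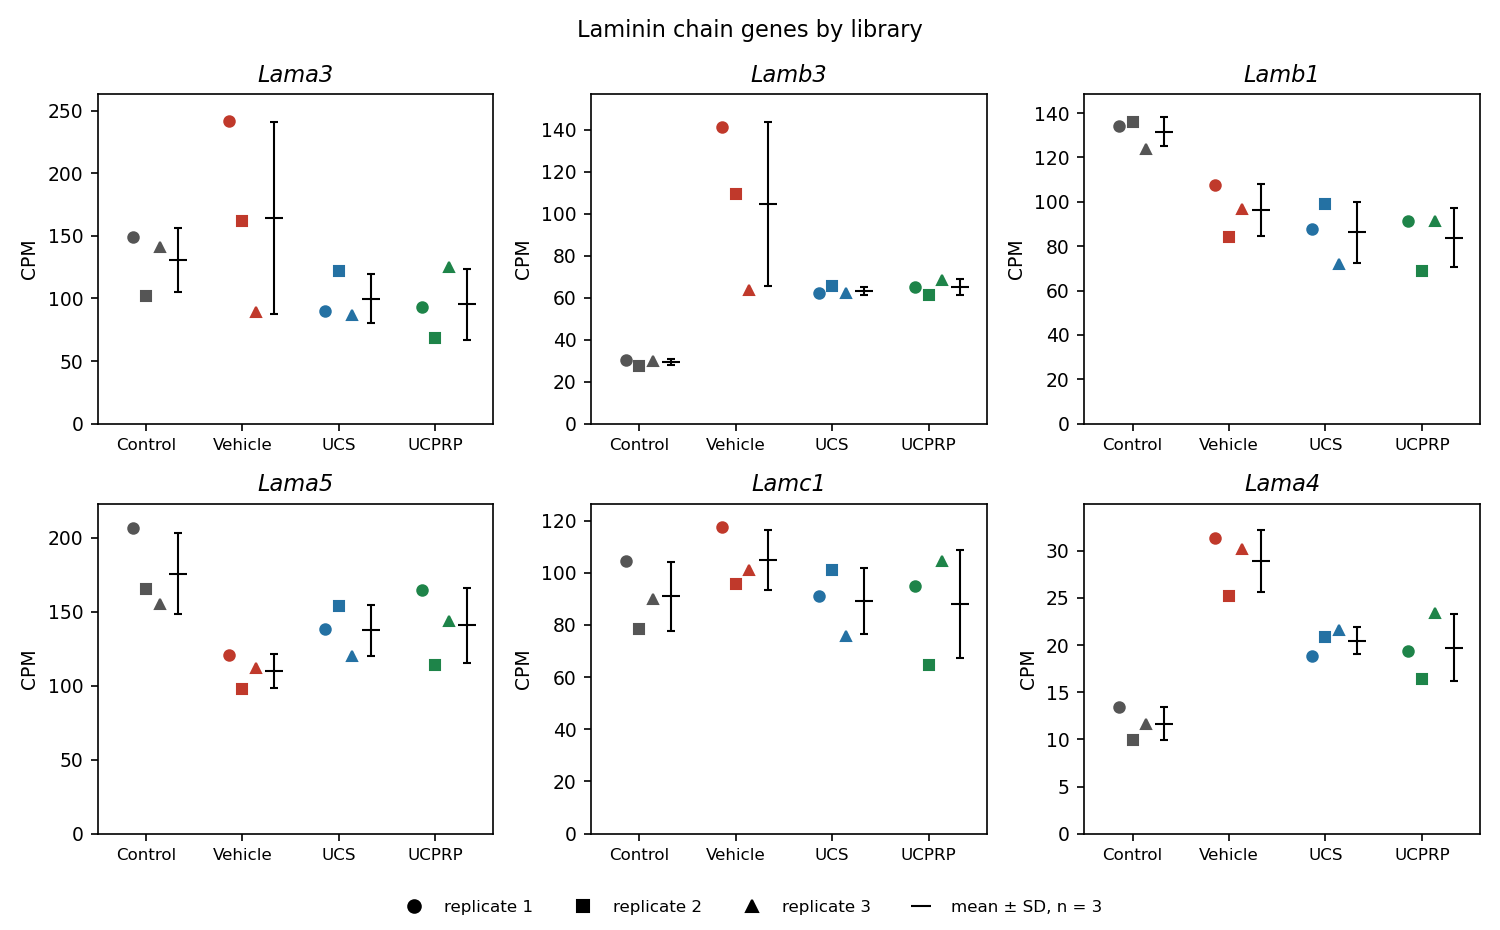
CPM (y axis, from 0) of 6 laminin chain genes in each library of the 4 groups; symbols give the replicate, and the bar beside each group is the mean ± SD of 3 libraries. Lamb3 is highest in Vehicle replicates 1 and 2, Lama4 is above Control in every injured library, Lamc1 overlaps between Control and Vehicle, and Lama5 and Lamb1 are lower in every Vehicle library than in Control.

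The chains of laminin-511 and laminin-521, the laminins of mature basement membranes, moved little or downward. Lama5 (chromosome 2, 180176373 to 180225904) was at 207, 165 and 155 CPM in Control, 120, 97.5 and 112 in Vehicle, 138, 154 and 120 in UCS, and 164, 114 and 144 in UCPRP. Every Vehicle library lay below every Control library, while UCS lay below Control and overlapped Vehicle, and UCPRP overlapped both. The log2 fold change in Vehicle was -0.68 (SE 0.16, adjusted p = 0.0142); the call was lost without Control replicate 1 (adjusted p = 0.0557) or Vehicle replicate 2 (adjusted p = 0.0633). Lamb1 was at 134, 136 and 124 CPM in Control and 108, 84.2 and 96.9 in Vehicle, which did not overlap, with a log2 fold change of -0.45 (adjusted p = 0.0613). It was called by DESeq2 (adjusted p = 0.0336), with a retina term (0.0259), and when UCS replicate 3 (0.0483) or UCPRP replicate 2 (0.0434) was left out of the shared fit. Lamb2 and Lamc1 differed by 0.11 (adjusted p = 0.727) and 0.21 (adjusted p = 0.519).

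The balance between the laminin beta chains therefore differed between the groups. Per length, Lamb3 was 0.256 ± 0.0224 times as high as Lamb1 in Control and 1.24 ± 0.428 times in Vehicle. In UCS and UCPRP it was 0.85 ± 0.123 and 0.895 ± 0.108 times as high. No injured library (lowest 0.748) reached down to Control (highest 0.277). The alpha chains did not separate in this way. Lama3 was 0.794 ± 0.158 times as high as Lama5 in Control and 1.58 ± 0.662 times in Vehicle, with overlapping libraries. In UCS and UCPRP the Lama3 ratio was 0.766 ± 0.0747 and 0.717 ± 0.177.

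Of the remaining laminin chains, Lama4, the alpha chain of vessel and mesenchymal basement membranes, was at 13.4, 9.90 and 11.7 CPM in Control, 31.4, 25.2 and 30.2 in Vehicle, 18.9, 20.9 and 21.7 in UCS, and 19.4, 16.4 and 23.4 in UCPRP. The groups were ordered without overlap as Control, the treated groups and Vehicle, and the treated groups overlapped each other; the Vehicle fold change was 1.31 on the log2 scale (SE 0.16, adjusted p = 0.000275). Lama2, the alpha chain of muscle and nerve laminin, was at 47.9, 32.7 and 32.6 CPM in Control, 37.6, 27.6 and 41.7 in Vehicle, 34.0, 44.7 and 29.5 in UCS, and 41.6, 27.9 and 46.3 in UCPRP, which all overlapped (log2 fold change -0.08, adjusted p = 0.875). Lamc3 differed by -0.45 (adjusted p = 0.324), but by -0.85 without Vehicle replicate 3 (adjusted p = 0.0325). Lama1, a chain of embryonic basement membranes and the lens capsule, differed by -0.69 (SE 0.53, adjusted p = 0.446). It was highest in UCPRP replicate 3 (14.6 CPM) and lowest in UCS replicate 1 (2.76 CPM), the libraries with the highest and the lowest sum of lens markers (25863 and 57.1 CPM). Only these extremes are compared here, and the part of lens content in the Lama1 level was not tested.

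Among the alpha chains for fibronectin, tenascin and related RGD ligands, only Itga5 was called in Vehicle. Itga5, the alpha chain of the classical fibronectin receptor (chromosome 15, 103344286 to 103366791), was at 13.4, 11.03 and 12.8 CPM in Control, 38.7, 40.2 and 31.5 in Vehicle, 19.3, 30.4 and 22.0 in UCS, and 25.8, 18.6 and 29.4 in UCPRP. Vehicle lay above the treated groups, and these above Control, without overlap; the log2 fold change in Vehicle was 1.56 (SE 0.20, adjusted p = 0.000438). Itgav, the shared alpha chain of the vitronectin and TGF-beta-activating receptors, was at 103, 98.8 and 115 CPM in Control, 152, 106 and 112 in Vehicle, 131, 111 and 106 in UCS, and 100, 88.5 and 109.5 in UCPRP; Vehicle overlapped Control (0.22, adjusted p = 0.364). Itga9, a tenascin receptor chain, differed by 0.05 (adjusted p = 0.857) and Itga8, a nephronectin receptor chain, by 0.38 (adjusted p = 0.396). Of the beta chains, Itgb1 was at 267, 249.5 and 245 CPM in Control, 471, 345.5 and 341 in Vehicle, 321, 344 and 313 in UCS, and 316.5, 274.5 and 322 in UCPRP. Every injured library lay above every Control library. Its Vehicle log2 fold change was 0.60 (SE 0.14, adjusted p = 0.0111), and the call was lost with only the Vehicle and Control libraries in the fit (adjusted p = 0.0514). Itgb5 differed by 0.00, Itgb6, an epithelial chain, by 0.15, and Itgb8 by 0.08, with adjusted p values from 0.813 to 0.991.

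The collagen receptor chains split. Itga11, a chain of fibroblasts, was at 6.08, 4.80 and 4.45 CPM in Control, 13.6, 13.8 and 18.1 in Vehicle, 8.77, 12.2 and 9.96 in UCS, and 10.3, 10.7 and 13.3 in UCPRP. It was the lowest in every Control library and the highest in Vehicle, where replicate 3 was above the others; the log2 fold change was 1.57 (SE 0.19, adjusted p = 0.000302). Itga1 was at 4.84, 3.20 and 4.40 CPM in Control, 8.52, 6.79 and 5.62 in Vehicle, 6.91, 6.11 and 6.03 in UCS, and 4.91, 5.34 and 4.58 in UCPRP, with a Vehicle log2 fold change of 0.75 (SE 0.20, adjusted p = 0.0266). Vehicle and Control did not overlap in Itga1, but its call was lost without Control replicate 2 (adjusted p = 0.0843), Control replicate 3 (0.0531), Vehicle replicate 1 (0.103) or Vehicle replicate 2 (0.0621), with only the compared groups in the fit (0.105), and with a clock (0.0608) or muscle term (0.105). Pelo, which is annotated within Itga1 on the same strand, may share reads with it. Itga10, a cartilage chain, differed by 0.16 (adjusted p = 0.745).

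Itga2, the collagen receptor chain of epithelium and platelets, was at 15.7, 12.2 and 13.4 CPM in Control, 18.7, 13.5 and 3.57 in Vehicle, 3.03, 4.66 and 5.87 in UCS, and 3.04, 2.11 and 5.14 in UCPRP. Vehicle replicates 1 and 2 were at or above the Control level, while Vehicle replicate 3 lay with the treated libraries. The log2 fold change in Vehicle against Control was -0.20 (SE 0.49, adjusted p = 0.846), and 0.23 (adjusted p = 0.762) without Vehicle replicate 3.

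**Figure D4:**
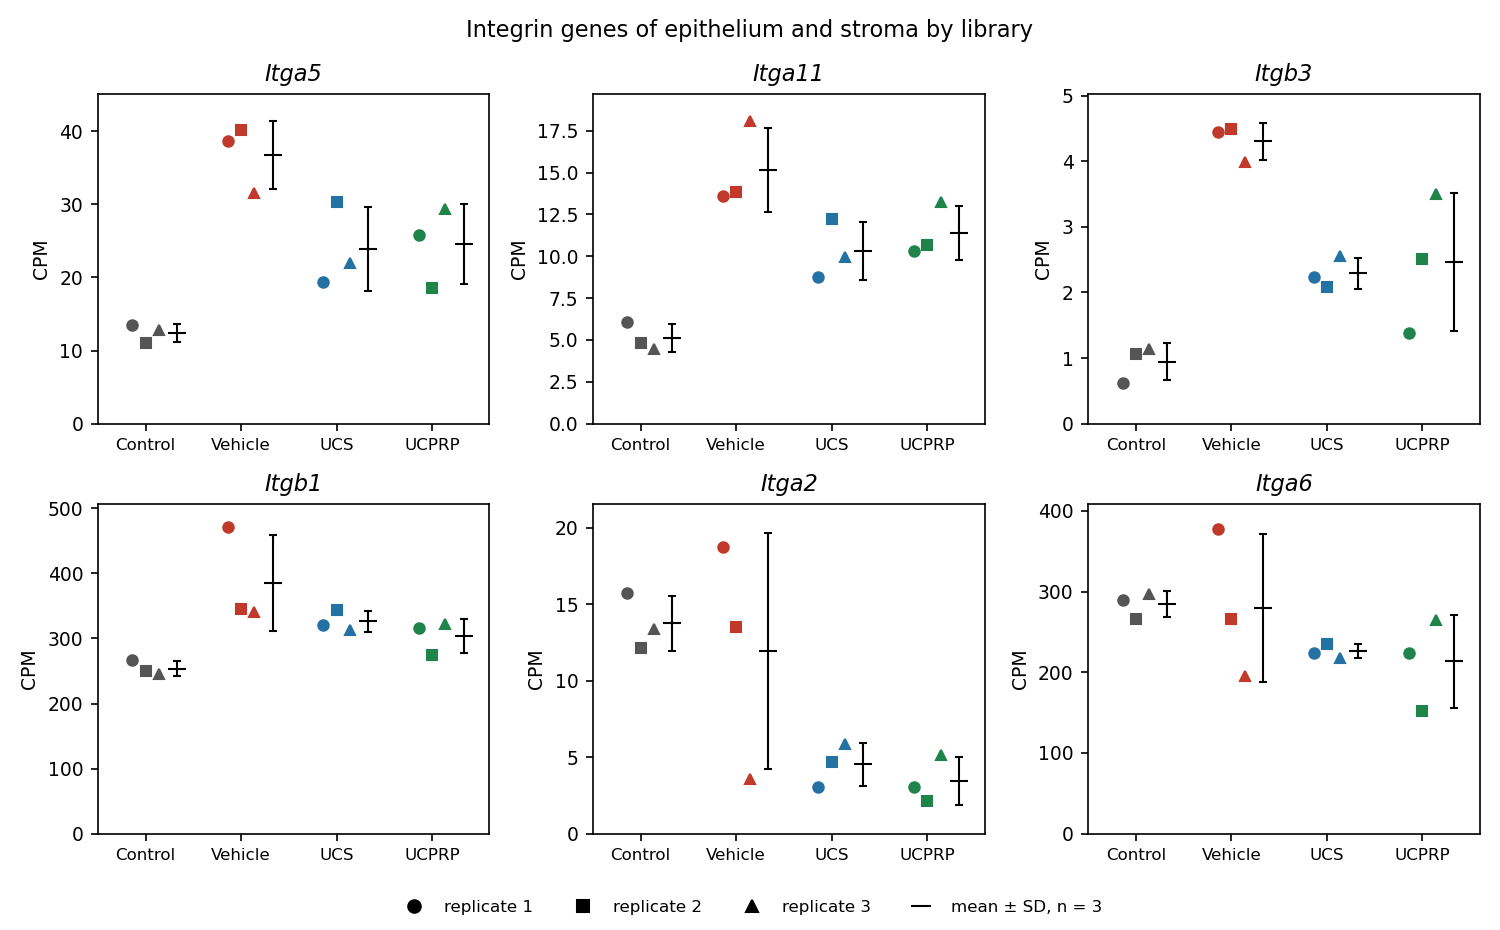
CPM (y axis, from 0) of 6 integrin genes in each library of the 4 groups; symbols give the replicate, and the bar beside each group is the mean ± SD of 3 libraries. Itga5, Itga11 and Itgb3 are lowest in Control and highest in Vehicle, Itga2 in Vehicle replicate 3 lies at the level of the treated groups, and Itga6 overlaps between Control and Vehicle.

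The laminin-binding integrins were not called in any comparison. Itga6 was at 290, 267 and 297 CPM in Control, 378, 266 and 195 in Vehicle, 225, 235 and 218 in UCS, and 224, 152 and 265 in UCPRP. Vehicle spanned the whole range of the Control libraries and beyond it on both sides. The log2 fold change in Vehicle was -0.03 for Itga6 (95% interval -0.54 to 0.49), 0.04 for its partner Itgb4 (-0.44 to 0.51), -0.13 for Itga3 (-0.65 to 0.39) and 0.08 for the muscle laminin receptor Itga7 (-0.29 to 0.44). Against Control, Itga6 differed by -0.33 in UCS and -0.41 in UCPRP, and all treated libraries lay below Control. Itgb4 differed by -0.35 and -0.43, Itga3 by -0.42 and -0.31, and Itga7 by 0.13 and 0.05. Per length, Itgb4 was 0.333 ± 0.0615 times as high as Itgb1 in Control and 0.225 ± 0.0336 times in Vehicle. That ratio was 0.204 ± 0.00661 in UCS and 0.208 ± 0.0338 in UCPRP.

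Genes that work with these chains were followed through 7 lists. Of the 4 hemidesmosome partners, Col17a1, a transmembrane collagen of hemidesmosomes, fell from 1036 ± 160 to 404.7 ± 132 CPM (log2 fold change -1.36, adjusted p = 0.00196), and Dst, Plec and Cd151 were not called. Of 16 other basement membrane components, 3 fell and none rose, with a median log2 fold change of -0.47. They were Frem2 (48.7 ± 8.28 to 8.24 ± 1.24 CPM, -2.56) and Fras1 (-1.14), which form a complex below epithelia, and Npnt, the ligand of the Itga8 receptor (-0.73). Some genes behind the median varied widely and were not called, such as Col4a1 (420.6 ± 269 to 237.1 ± 111 CPM, adjusted p = 0.587) and Nid1 (150.8 ± 74.9 to 102.5 ± 21.9 CPM, adjusted p = 0.645). The part of lens content in this median was not tested. Of 6 other laminin receptors, Sdc1, an epithelial syndecan, fell (-0.89, adjusted p = 0.00212), and none rose.

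The matrix ligands of integrins moved the other way. Of the 12 tested genes on this list, 8 rose and none fell, and the median log2 fold change was 1.07. Tnc, encoding tenascin C, rose from 13.5 ± 4.41 to 240.1 ± 41.2 CPM (4.15, adjusted p = 0.000338), and Postn, encoding periostin, from 84.4 ± 8.2 to 317 ± 63.9 CPM (1.91, adjusted p = 0.00021). Tnn rose by 1.76 on the log2 scale, at low levels (2.33 ± 0.825 to 7.90 ± 4.18 CPM). Of 8 cell-surface ligands of leukocyte integrins, Icam1, the LFA-1 ligand, rose from 13.8 ± 2.85 to 48.4 ± 11.9 CPM (1.81, adjusted p = 0.000244) and Vcam1 by 0.86 (adjusted p = 0.000677). Of 8 genes of latent TGF-beta, which Itgav receptors activate, 3 rose: Lrrc32 (1.88), Tgfb3 (0.98) and Tgfb1 (0.63).

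Of the 34 intracellular adaptors and activators of integrins, 3 rose and 5 fell. Apbb1ip (RIAM), which recruits talin in leukocytes, rose by 2.0 on the log2 scale (3.38 ± 1.07 to 13.5 ± 2.72 CPM, adjusted p = 0.000341). Fermt3, the kindlin of blood cells, fell from 63.7 ± 24.3 to 20.6 ± 1.85 CPM (-1.62, adjusted p = 0.00085) although Itgb2, to which it binds, rose. Tns4, an epithelial tensin, fell by 1.42 on the log2 scale (adjusted p = 0.0037). The counts of these lists are to be read against the 9.58% higher and 6.92% lower calls over all genes.

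The BAK-injured groups given UCS or UCPRP were also compared with Control. In UCS against Control, 7 of 35 genes were called higher and 1 lower, where 6.4% and 4.47% of all genes were. In UCPRP against Control, 7 were called higher and 2 lower, where 5.3% and 5.07% of all genes were. The same 7 genes were called higher in both: Itgb2, Itgax, Itgb3, Lamb3, Itga11, Itga5 and Lama4. Outside the beta2 integrins, 5 of 31 tested genes were called higher in each comparison, with 1 lower in UCS and 2 lower in UCPRP. The comparisons with Control, that of Vehicle included, use the same 3 Control libraries, so they are not independent of each other.

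**Figure D5:**
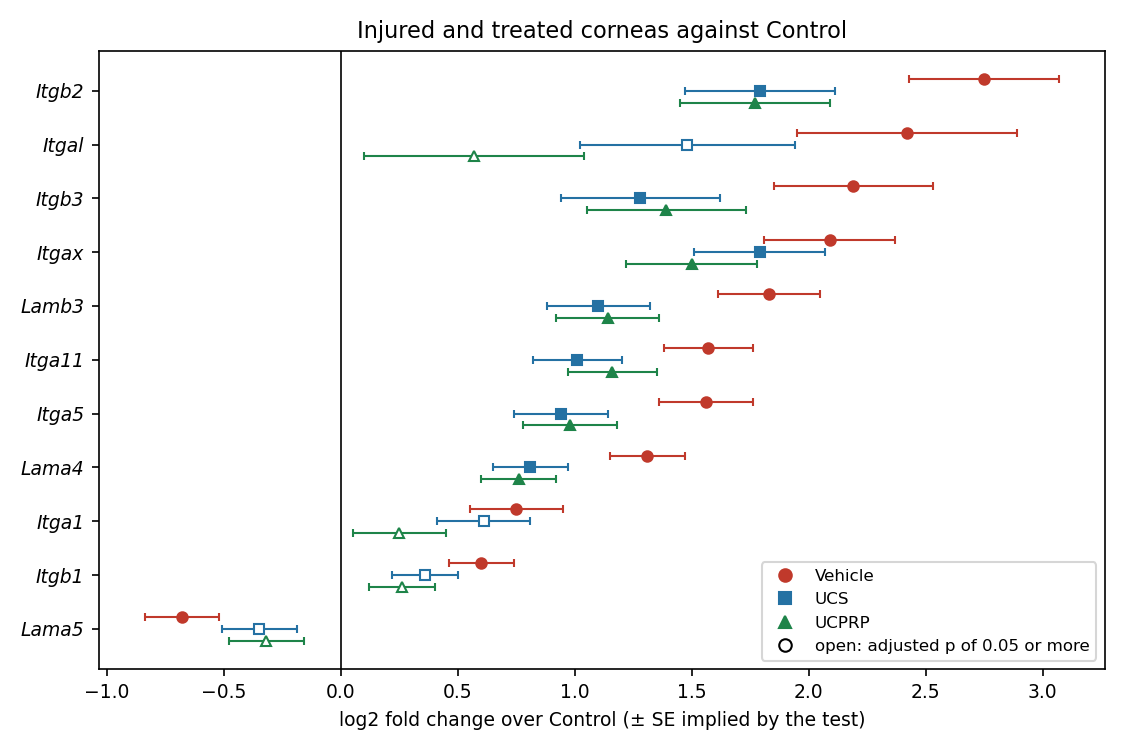
Log2 fold change over Control (x axis) in Vehicle, UCS and UCPRP for the 11 genes called in Vehicle against Control, with bars of ± SE as implied by the test; open symbols have an adjusted p of 0.05 or more. The genes were chosen by their Vehicle difference, so nothing is read from Vehicle lying furthest from 0; Itgal is at 1.48 and 0.57 in UCS and UCPRP.

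Itgb2 was higher than in Control by 1.79 on the log2 scale in UCS (adjusted p = 0.00392) and by 1.77 in UCPRP (adjusted p = 0.00487), and Itgax by 1.79 (adjusted p = 0.00216) and 1.5 (adjusted p = 0.00642). Lamb3 was higher by 1.10 (adjusted p = 0.00693) and 1.14 (adjusted p = 0.00652), and Lama4 by 0.81 (adjusted p = 0.00622) and 0.76 (adjusted p = 0.01). Itga11 was higher by 1.01 and 1.16, and Itga5 by 0.94 and 0.98. These 6 genes kept their calls under 22 other settings of the analysis (other tools, scalings, terms and omitted libraries). Itgb3 was higher by 1.28 in UCS (adjusted p = 0.0344) and 1.39 in UCPRP (adjusted p = 0.0249), but its calls were lost under 10 and 6 of those settings, among them the omission of any Control library for UCS (adjusted p = 0.052 to 0.117) and of any UCS library (0.0695 to 0.108). In UCPRP the Itgb3 call was lost without Control replicate 1 (0.0856), Control replicate 2 (0.0555), UCPRP replicate 2 (0.0697) or UCPRP replicate 3 (0.103).

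Itgal was not called in either treated group against Control. It differed by 1.48 in UCS (SE 0.46, adjusted p = 0.0666) and by 0.57 in UCPRP (SE 0.47, adjusted p = 0.504). In UCS the Itgal call appeared with DESeq2 (adjusted p = 0.0167) and when UCS replicate 1 (0.0417) or Vehicle replicate 3 (0.0244) was left out. Itgam differed by 0.64 in UCS (adjusted p = 0.0538) and by 0.14 in UCPRP (adjusted p = 0.679). The UCS difference of Itgam was called by DESeq2 (adjusted p = 0.0115), with library totals (0.0075), a muscle term (0.0219) or a retina term (0.00876), and without Vehicle replicate 1 (0.0294). Without Control replicate 2 it was 0.81 and was called (adjusted p = 0.0303); the Vehicle difference was then 0.70 (adjusted p = 0.0391).

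Lamb1 was lower than in Control in both treated groups. Its levels were 87.6, 99.1 and 71.9 CPM in UCS and 91.5, 68.6 and 91.6 in UCPRP, all below the 3 Control libraries, and the log2 fold changes were -0.61 (adjusted p = 0.0215) and -0.65 (adjusted p = 0.0174). In UCS this call was lost without Control replicate 1 (0.064), Control replicate 2 (0.0642), UCS replicate 1 (0.0571) or UCS replicate 3 (0.0921). In UCPRP it was lost without Control replicate 1 (0.0517) or UCPRP replicate 2 (0.068). Itga2 was called lower in UCPRP (-2.0, SE 0.51, adjusted p = 0.0303) and had a difference of -1.60 in UCS (adjusted p = 0.069). No treated library reached the lowest Control library in Itga2. The UCPRP call of Itga2 was lost without any Control library (adjusted p = 0.0569 to 0.0798), without UCPRP replicate 1 (0.0974) or without UCPRP replicate 2 (0.115). It was also lost with limma-voom (0.0599), a replicate block (0.0634), a clock term (0.0537) or a retina term (0.0645). The UCS difference of Itga2 was called by DESeq2 (adjusted p = 0.0145), with only the compared groups in the fit (0.0131), and without Vehicle replicate 3 (0.0101), which enters the spread. The treated groups had 1 hemidesmosome partner called lower against Control, as Vehicle had. Of 12 tested matrix ligands, 5 were called higher in UCS and 6 in UCPRP. Over all genes, 6.4% were called higher and 4.47% lower in UCS, and 5.3% and 5.07% in UCPRP.

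Against Vehicle, none of the 35 genes was called by edgeR in UCS or in UCPRP, and neither was any of the 16124 genes (0%). At an unadjusted p under 0.05 there were 7 of the 35 genes in UCS against Vehicle and 13 in UCPRP against Vehicle, where 4.85% and 9.75% of all genes were. The mean was lower than in Vehicle for 25 of the 35 genes in UCS and for 27 in UCPRP, with median log2 fold changes of -0.18 and -0.34 beside -0.01 and 0.03 over all genes. The libraries did not overlap, with the treated group lower, for 5 genes in UCS and 11 in UCPRP (4.43% and 7.13% of all genes), and for none of the 35 in the higher direction (5.02% and 6.68% of all genes). Outside the beta2 integrins, 5 of 31 tested genes were separated lower in UCS and 7 in UCPRP. The mean of these 31 was lower than in Vehicle for 22 and 23 genes, with medians of -0.16 and -0.27. Of the 35 genes, DESeq2 called none in UCS and Itgal (adjusted p = 0.0166) and Itga2 (0.0469) in UCPRP, and limma-voom called none. The comparisons of UCS and of UCPRP with Vehicle use the same Vehicle libraries, so they are not independent of each other. A difference from Vehicle that UCS and UCPRP share is therefore not read as a repeated result.

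In UCPRP against Vehicle all 4 beta2 integrin genes were separated from Vehicle, with log2 fold changes of -1.85 for Itgal, -0.98 for Itgb2, -0.59 for Itgax and -0.39 for Itgam (adjusted p from 0.331 to 0.53). In UCS none of the 4 was, and UCS replicate 3 lay above Vehicle replicate 3 for Itgal, Itgax and Itgb2. The same library had the highest pan-leukocyte sum of the treated groups, 266 CPM. Of the laminin-332 chains, Lamb3 and Lama3 differed by -0.73 and -0.72 in UCS and by -0.69 and -0.79 in UCPRP, and each overlapped Vehicle because of Vehicle replicate 3. Lama4 (-0.50 in UCS and -0.55 in UCPRP), Itga5 (-0.62 and -0.58), Itga11 (-0.56 and -0.41) and Itgb3 (-0.91 and -0.80) were separated from Vehicle in both treated groups. These genes were also called higher in Vehicle against Control with the same Vehicle libraries, so the 2 kinds of difference are not independent.

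Leaving out Vehicle replicate 3 gave edgeR calls for 1 gene in UCS and 3 genes in UCPRP. The share of all genes called without that library is not given here, so these counts are not read as particular to these genes. In UCS, Lamb3 was then called lower by 0.99 on the log2 scale (adjusted p = 0.0146). In UCPRP, Itgal was lower by 2.20 (adjusted p = 0.0284), Itga2 by 2.23 (adjusted p = 0.022) and Lamb3 by 0.95 (adjusted p = 0.0109). Vehicle replicate 3 also differed from the other Vehicle libraries in having Dbp above Arntl and in its muscle content (1781 CPM, against 282 and 809 CPM in replicates 1 and 2). Its pan-leukocyte sum was 203 CPM, against 373 and 351 CPM, and its neutrophil sum 81.3 CPM, against 425.6 and 424.5 CPM. With 1 such library these differences cannot be told apart. For Lama5 the treated groups had means above Vehicle, by 0.32 in UCS and 0.36 in UCPRP, with overlapping libraries.

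UCPRP and UCS, used at the same strength and schedule, did not differ by a called gene: edgeR called 0 of the 35 genes and 0% of all genes, and DESeq2 and limma-voom called none of the 35. At an unadjusted p under 0.05 there was 1 of the 35 (2.44% of all genes). It was Itgam, lower in all 3 UCPRP libraries than in any UCS library (log2 fold change -0.50, 95% interval -0.91 to -0.08, adjusted p = 0.985). The intervals were -0.68 to 0.63 for Itgb2, -1.89 to 0.08 for Itgal, -0.43 to 0.50 for Lamb3 and -0.39 to 0.47 for Itga5. The data thus leave room for differences of that size between the biologics.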

How the data were processed

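RNA was measured in 12 pooled corneal libraries, 3 in each of 4 groups taken from the labels. Per the labels' protocols, RNA was extracted with a Qiagen RNeasy kit and sequenced from TruSeq Stranded Total RNA libraries; the submitters' processing notes name HISAT and GRCm38 without a version. No counting tool, annotation or strand setting is given in the sources used here. The authors deposited estimated counts per gene, not scaled to library size (64.9% of the values are whole numbers), and these were rounded to whole numbers for the tests.

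The filter was filterByExpr with a minimum count of 10; the 16124 genes it kept were scaled with TMM (factors 0.825 to 1.07) and tested with edgeR 4.0.16 in R 4.3.3 (quasi-likelihood F test, robust, 1 term per group over all 12 libraries, Benjamini-Hochberg adjustment over all genes; 95% intervals from the t quantile that matches this test). The common biological coefficient of variation was 0.227. A count of 3 corresponded to 0.147 to 0.162 CPM, which covers counting error only. Libraries of a group differed by at least 16 times the variance of counting error, so none was a repeat deposit. The fit was tested on simulated data. Coordinates are from RefSeq GRCm38.p6, and exon lengths and overlaps from GENCODE on GRCm38.

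The members and lists were chosen with earlier results of these data known; 1 of the 37 genes that match the name pattern is not reported here and enters no count of members. Values in every library are given for the members called in Vehicle against Control and the most abundant member of each role; other members given so, and the promoters shown, were chosen after their values were seen. From each partner list the 3 largest called changes are named. Alternatives were DESeq2 1.42.0, limma-voom (limma 3.58.1), other scalings, no filter, only the compared groups, terms for replicate number, clock, muscle and retina, and each library left out; the split by Dbp and Arntl was added after seeing the data. The labels do not say that replicate numbers pair the libraries, and correlations between same-numbered libraries showed no consistent pairing.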

Additional observations from a re-analysis of the deposited data

How the results depend on the processing

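No called gene changed sign under any of the 22 settings listed in the methods or the 2 splits by Dbp and Arntl added after seeing the data; of 4935 values recomputed, 234 changed sign, none of them called. Calls were kept under all of the 22 by 8 of 11 genes in Vehicle against Control, 6 of 8 in UCS against Control and 6 of 9 in UCPRP against Control. In Vehicle against Control the 10 genes called higher were 11 with DESeq2, 10 with limma-voom, 5 among the libraries with Dbp above Arntl and 1 among those with Dbp below it. The single gene called lower became 2 with DESeq2 or with a retina term, 0 in either Dbp class, and 0 to 2 with a library left out. Against Vehicle, the 0 genes called lower stayed 0 with DESeq2 in UCS and became 2 in UCPRP, and with a library left out were 0 to 1 in UCS and 0 to 3 in UCPRP. In UCS against Control the 7 higher became 9 with DESeq2, 8 with library totals, a muscle term or a retina term, 6 with limma-voom and 0 with Dbp below Arntl, and the 1 lower became 2 with DESeq2 or with only the compared groups, 0 in either Dbp class, and 0 to 2 with a library left out. In UCPRP against Control the 7 higher became 4 with Dbp above Arntl, and the 2 lower became 1 with limma-voom, a clock term, a retina term or Dbp above Arntl, and 0 to 2 with a library left out. The Dbp classes hold 8 and 4 libraries, so they test with fewer samples and some groups of 1; the cause of the other changes was not tested. Same-numbered libraries showed no consistent pairing, which does not exclude a pairing of some of them. Of 18 same-numbered pairs, 7 had a correlation over 0.1 (range -0.58 to 0.49), and 3 libraries correlated best with their own number. With a replicate block, the counts in Vehicle against Control were 10 higher and 1 lower, and 1 gene in place of 2 was called lower in UCPRP against Control. Shares over all genes under the other settings are not given here, so the counts are not read as particular to these genes. Itgb3, the lowest tested gene per kilobase in Control, rests on 12.15 to 92.37 estimated counts a library, which limits its precision.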
